A study of Mus musculus with 24 samples.

Results

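A set of 10 genes of the MHC class I pathway was followed in mouse lymph node B cells that lacked PU.1, SpiB or both of these ETS transcription factors. They were the heavy chain genes H2-K1, H2-D1, H2-T23 and H2-M3, the light chain gene B2m, the peptide transporter genes Tap1 and Tap2, the tapasin gene Tapbp, and the immunoproteasome genes Psmb8 and Psmb9. A gene was taken when its symbol stood in both tables of read counts, which gave all 10 listed genes out of 27179, and all 10 passed the filter on low counts in every comparison. The genes share a function, and the list was chosen with earlier results of these data known.

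RNA-seq libraries were compared over 4 genotypes at 3 stages, with 2 libraries in each of 12 groups and 24 libraries in all. The stages were naive B cells sorted from peripheral lymph nodes as CD3- B220+ CD138-, the same kind of cells after 48 h with CD40L at 50 ng/ml and IL-4 at 10 ng/ml, and after 48 h with LPS at 20 µg/ml and IL-4 at 10 ng/ml. The activated cells were sorted by the same markers. Controls were Cd23T/+, carrying the Cre transgene alone. PU.1 cKO mice were Spi1fl/fl Cd23T/+, SpiB KO mice were Spi1fl/fl Cd23+/+ Spib-/- without Cre, and PU.1 SpiB DKO mice were Spi1fl/fl Cd23T/+ Spib-/-. The mice were on a C57BL/6 background and 6 to 20 weeks old. Cre was driven by Cd23, which becomes active late in B cell development, so the deletion was directed to mature B cells, and the study describes naive DKO cells as retaining some of the floxed Spi1 exon. SpiB was absent from the germline. The study's methods call the 2 libraries of a group biological replicates. Neither these nor the labels say whether they came from separate mice. The p-values rest on the spread between libraries of a group, estimated over all groups in a fit. This may not be the spread between mice.

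MHC class I molecules carry peptides made inside the cell to its surface, where CD8 T cells and natural killer cells inspect them. The proteasome cuts proteins into peptides, and the immunoproteasome subunits encoded by Psmb8 and Psmb9 replace their constitutive counterparts in lymphoid and interferon-exposed cells. Tap1 and Tap2 form the pump that brings peptides into the endoplasmic reticulum, and tapasin bridges the pump to empty class I molecules. H2-K1 and H2-D1 encode the classical heavy chains, H2-T23 encodes Qa-1, a ligand of NKG2A receptors, and H2-M3 encodes a heavy chain that presents formylated peptides. B2m encodes β2-microglobulin, which every class I heavy chain needs to reach the surface.

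Of the 10 genes, 9 lie in the H2 complex on chromosome 17 and B2m lies on chromosome 2 (build GRCm38.p6). From the centromeric end these are Tapbp at chr17:33919478-33929290, H2-K1 at chr17:33996012-34000619, Psmb9 at chr17:34182030-34187330, Tap1 at chr17:34187556-34197225, Psmb8 at chr17:34198195-34201454, Tap2 at chr17:34204479-34216321, H2-D1 at chr17:35263094-35267497, H2-T23 at chr17:36029977-36032701 and H2-M3 at chr17:37270234-37274485. B2m spans chr2:122147687-122153082. Counts were summed over the exons of each gene.

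The promoters of 3 genes are shown because the results turn on H2-K1, because H2-D1 has a closely related promoter, and because Tap1 starts 226 bp from Psmb9 on the opposite strand. Each runs from 250 bases before the transcription start to 50 bases after it in RefSeq (GRCm38.p6), at chr17:34000284-34000583 on the minus strand for H2-K1, chr17:35262844-35263143 on the plus strand for H2-D1 and chr17:34187306-34187605 on the plus strand for Tap1. Capitals mark GGGATTCCC (an NF-κB-type element), TTTCACTTC (an interferon response element), TGACGC (an X2-box type element) and ATTGG, the CCAAT box, each on either strand.
H2-K1: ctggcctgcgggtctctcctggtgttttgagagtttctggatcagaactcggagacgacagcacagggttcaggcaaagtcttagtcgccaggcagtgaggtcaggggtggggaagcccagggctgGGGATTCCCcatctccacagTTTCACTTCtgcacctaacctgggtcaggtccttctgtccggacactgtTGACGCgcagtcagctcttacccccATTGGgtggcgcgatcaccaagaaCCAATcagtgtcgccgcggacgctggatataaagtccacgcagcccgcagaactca
H2-D1: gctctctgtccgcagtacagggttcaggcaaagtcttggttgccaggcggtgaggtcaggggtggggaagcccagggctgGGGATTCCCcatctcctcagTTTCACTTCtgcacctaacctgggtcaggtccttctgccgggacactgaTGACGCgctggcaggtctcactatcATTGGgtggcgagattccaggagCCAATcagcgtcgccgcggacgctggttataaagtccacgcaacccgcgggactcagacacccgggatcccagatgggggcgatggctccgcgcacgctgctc
Tap1: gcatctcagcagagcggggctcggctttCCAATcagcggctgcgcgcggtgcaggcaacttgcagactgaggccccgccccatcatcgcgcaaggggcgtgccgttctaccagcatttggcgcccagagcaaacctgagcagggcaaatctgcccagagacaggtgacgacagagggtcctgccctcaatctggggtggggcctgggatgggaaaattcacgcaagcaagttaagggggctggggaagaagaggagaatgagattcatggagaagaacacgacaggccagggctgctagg

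Where they align, the H2-K1 and H2-D1 promoters were identical at 222 of 253 bases, or 87.7%. The RefSeq promoters used here give H2-K1 a pair of start sites 14 bp apart, and both windows held the same elements. The H2-K1 gene span given above reaches 34000619, so on the minus strand both windows lie within it. A promoter was found for 9 of the 10 genes, the exception being Tap2. Of these 9 genes, H2-K1 and H2-D1 held GGGATTCCC, which occurred in 0.353% of all 32851 promoters of the same length. TTTCACTTC (0.505% of all promoters) and TGACGC (7.4%) were each found in H2-K1, H2-D1 and H2-M3. ATTGG, found in 37.4% of all promoters, was present in 8 of the 9 genes, the exception being Psmb8. These 4 elements were chosen after the promoters had been read. Of the elements listed with the design, the PU.1-type ETS core GAGGAAGT (3.2% of all promoters), the broader ETS core CCGGAAGT (3.89%) and the ETS-IRF composite GGAANNGAA (8.24%) were found in 0 of the 9. The IRF core GAAANNGAA (8.56%) was found in H2-T23 and B2m, TTCNNNGAA (8.3%), the GAS core, in H2-M3 and Psmb8, and the CRE-type TGACGNNA (6.61%) in Tap1 and Psmb9, whose windows share 275 bases. TGACGC and TGACGNNA can cover the same bases.

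Library totals ranged from 14231188 to 18194629 counts in naive cells, from 9598674 to 61640683 after CD40L + IL-4 and from 22757630 to 73658850 after LPS + IL-4. The lowest value of the 10 genes in any library was 26.05 CPM (counts scaled to a fixed library total). Levels below are CPM scaled by TMM over all 24 libraries. They are shares of a library, so fewer cells of a type and less RNA per cell cannot be told apart. Spib was reduced in every SpiB KO and DKO comparison with control, by log2 fold changes of −3.83 to −5.50. Spi1 fell in PU.1 cKO cells by 1.54, 1.24 and 0.63 on the log2 scale in naive, CD40L + IL-4 and LPS + IL-4 cells. In the libraries labelled PU.1 SpiB DKO, Spi1 fell by 0.63 in naive and 1.73 in CD40L + IL-4 cells. After LPS + IL-4 it stood at 58.8 and 54.8 CPM against 69.1 and 60.0 CPM in control (log2 fold change −0.11, edgeR adjusted p = 0.448). The deletion removes part of Spi1 and gene-level counts include the remaining exons, so this is a partial check of the labels. The study describes loss of the floxed exon in reads from both activated stages, and reads by exon were not analysed here. A list of 6 B cell markers was detected in every group.

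In control B cells, the light chain and the classical heavy chains were the most abundant of the 10 mRNAs per length of transcript. On the scale of the deposited log2 RPKM, naive control means ran from B2m at 12.1 through H2-K1 at 10.7, H2-D1 at 10.2, Psmb8 at 8.99 and H2-T23 at 8.69 to Psmb9 at 8.0 and Tapbp at 7.96, with Tap1 at 7.31, Tap2 at 6.31 and H2-M3 at 6.09. Psmb9 and Tapbp were the only neighbours in this order whose control libraries overlapped. After LPS + IL-4, Psmb8 at a mean log2 RPKM of 8.89 lay level with H2-D1 at 8.87, and their libraries overlapped. H2-K1 was then at 9.13 and H2-M3, still lowest, at 4.53. Together the 10 genes took 1.18% to 1.30% of all counts in naive libraries, 0.633% to 0.817% after CD40L + IL-4 and 0.448% to 0.518% after LPS + IL-4.

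The first comparison asked how the pathway moved when normal B cells were activated. All 10 genes were lower after LPS + IL-4 than in naive control cells at an adjusted p under 0.15, and 9 of the 10 also exceeded a fold of 1.5 and were called. Over all 13684 genes tested, 31.3% were called lower and 32.6% higher. H2-K1 stood at 3562 and 3347 CPM in the naive control libraries and at 919 and 927 CPM after LPS + IL-4, so the groups lay far apart and the replicates close together. It fell 3.74-fold (log2 fold change −1.90, SE 0.14, edgeR adjusted p = 3.91e-10).

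B2m moved with the heavy chains. Its naive control level was 4605 and 4107 CPM and its level after LPS + IL-4 was 1374 and 1410 CPM, with a log2 fold change of −1.65 (SE 0.17, edgeR adjusted p = 4.15e-08). H2-D1 went from 2448 and 2144 CPM to 773 and 804 CPM, a log2 fold change of −1.54 (SE 0.13, edgeR adjusted p = 4.6e-09). The nonclassical genes fell as far, H2-T23 by 1.63 and H2-M3 by 1.64 on the log2 scale. Heavy and light chains thus fell by 1.54 to 1.90 on the log2 scale.

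The peptide supply genes moved less. Tap1, at 499 and 485 CPM in naive and 312 and 319 CPM in LPS + IL-4 control cells, fell by 0.64 on the log2 scale (SE 0.12, edgeR adjusted p = 6.44e-05). Tap2 fell by 0.72, Tapbp by 0.67 and Psmb9 by 0.71. Psmb8 was the exception, at 713 and 629 CPM in naive and 531 and 602 CPM in LPS + IL-4 cells (log2 fold change −0.24, SE 0.14, edgeR adjusted p = 0.129), and it was not called. Psmb8 no longer passed with voom (0.361) or without naive control replicate 1 (0.452) or LPS + IL-4 control replicate 1 (0.424), and Tapbp was under the fold threshold with voom (log2 fold change −0.57). The difference between the chains and the supply genes was not tested.

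After CD40L + IL-4, 6 of the 10 genes were called lower than in naive control cells, against 23.4% called lower and 25.4% higher over all genes. H2-K1 fell to 1198 and 1535 CPM, a log2 fold change of −1.34 (SE 0.14, edgeR adjusted p = 1.04e-07). B2m fell to 1658 and 2359 CPM, a log2 fold change of −1.12 (SE 0.16, edgeR adjusted p = 1.15e-05). H2-M3 fell by 0.97, H2-D1 by 0.93, H2-T23 by 0.81 and Tapbp by 0.67 on the log2 scale. Tap1 kept nearly its naive level, at 467 and 536 CPM (log2 fold change 0.03), Tap2 was at 186 and 205 CPM against 201 and 213 CPM, and Psmb9 was at 195 and 235 CPM against 222 and 208 CPM, so the libraries of all 3 genes overlapped between the stages. The CD40L + IL-4 libraries stand in a separate count table from the naive and LPS + IL-4 libraries, so the stage and the table cannot be told apart here. With voom and quantile normalization 3 genes were called, namely H2-K1, H2-T23 and H2-M3. Tapbp was not called without control CD40L + IL-4 replicate 1.

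Between the activated stages, the genes that CD40L + IL-4 had left near their naive level were lower after LPS + IL-4. Tap1 fell by 0.67, Tap2 by 0.64 and Psmb9 by 0.71 on the log2 scale from CD40L + IL-4 to LPS + IL-4 control cells (edgeR adjusted p between 7.14e-05 and 0.000104). H2-D1, H2-T23 and H2-M3 were also called lower, which made 6 of 10, against 21% lower and 20.3% higher over all genes. Tapbp, at 403 and 517 CPM against 451 and 468 CPM, and Psmb8, at 510 and 609 CPM against 531 and 602 CPM, overlapped between the stages. Control CD40L + IL-4 replicate 2 carried much of this comparison: without it 1 gene, H2-T23, was called, and the B2m change went from a log2 fold change of −0.53 (edgeR adjusted p = 0.0117) to −0.25 (0.257).

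**Figure D1:**
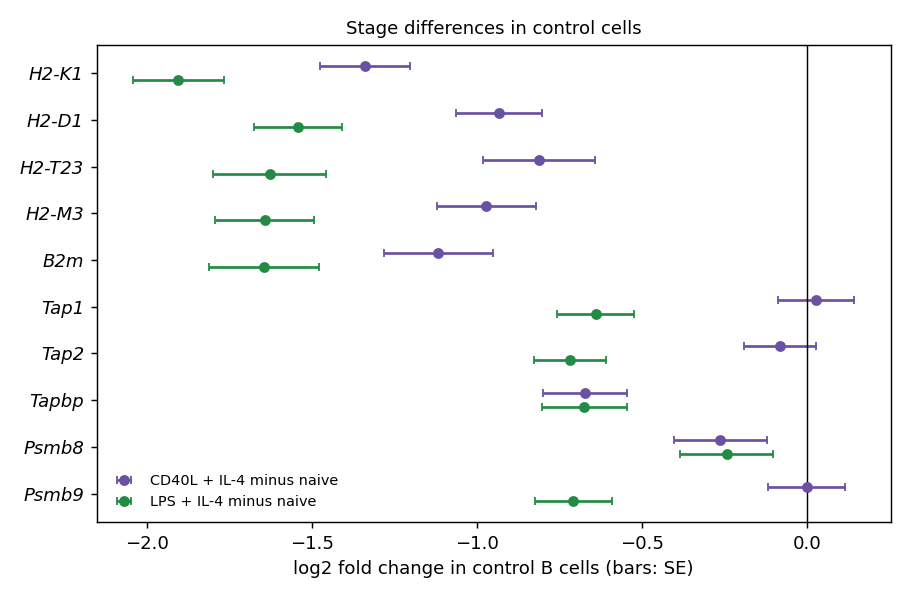
Log2 fold changes from naive to each activated stage in control cells for each of the 10 genes, with bars of 1 SE from the edgeR fit of all 24 libraries. After LPS + IL-4 the heavy chain genes and B2m lie between −1.54 and −1.90, and the other genes between −0.24 and −0.72.

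The level plots of the 10 genes show every library behind these values.

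**Figure D2:**
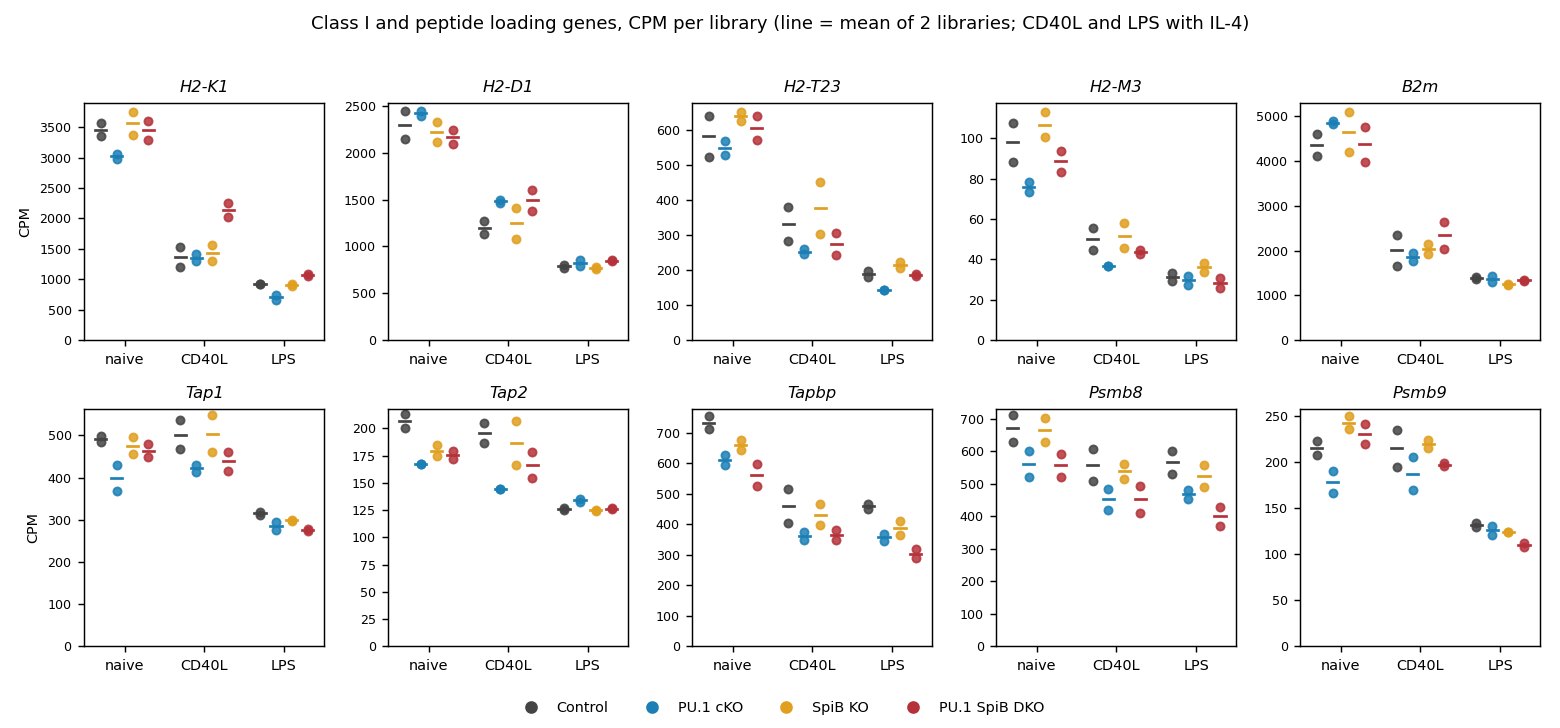
CPM of each gene in each of the 24 libraries by stage and genotype, 1 point a library, with lines at the mean of the 2 libraries of a group. H2-K1 in the PU.1 SpiB DKO libraries after CD40L + IL-4, at 2247 and 2031 CPM, lies above the other 6 libraries of that stage.

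The genotype comparisons asked what loss of PU.1, SpiB or both did at each stage. In naive cells none of the 10 genes was called in any of the 5 comparisons. Over all 12500 genes tested, 10.7% were called in PU.1 cKO against control, 9.62% in SpiB KO, 21.2% in DKO, 12.9% in DKO against PU.1 cKO and 3.05% in DKO against SpiB KO. DESeq2 and voom also called 0 of the 10 in each. At an unadjusted p under 0.05, 5 of the 10 passed in PU.1 cKO, 0 in SpiB KO, 2 in DKO, 1 in DKO against PU.1 cKO and 0 in DKO against SpiB KO. The comparisons with control share the same 2 control libraries at each stage.

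In naive cells no genotype difference in H2-K1 or H2-D1 passed the adjusted p in the fits without the replicate block described below. H2-K1 stood at 3562 and 3347 CPM in controls, 2984 and 3060 in PU.1 cKO, 3744 and 3378 in the SpiB KO and 3608 and 3292 CPM in DKO. The PU.1 cKO libraries were the lowest, and the others overlapped. H2-D1 was at 2448 and 2144 CPM in controls, 2448 and 2394 in PU.1 cKO, 2332 and 2111 in the SpiB KO and 2240 and 2097 CPM in DKO. The PU.1 cKO libraries lay above those of SpiB KO and DKO, and the other groups overlapped. B2m ranged from 3979 CPM in a DKO library to 5105 CPM in a SpiB KO library. The PU.1 cKO libraries, at 4889 and 4819 CPM, lay above those of control and DKO and within the range of SpiB KO.

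Small decreases in peptide loading genes passed the adjusted p without reaching a fold of 1.5. Tapbp was at 712 and 754 CPM in naive control cells, 594 and 626 in PU.1 cKO, 645 and 677 in the SpiB KO and 525 and 598 CPM in DKO, so every library that lacked a factor lay below both control libraries. It fell 1.30-fold in DKO (log2 fold change −0.38, SE 0.11, edgeR adjusted p = 0.0426). Tap2 was at 201 and 213 CPM in controls, 168 and 167 in PU.1 cKO and 179 and 172 CPM in DKO, and fell by 0.31 in PU.1 cKO (edgeR adjusted p = 0.0987) and 0.23 in DKO (0.14) on the log2 scale. In PU.1 cKO cells H2-M3 fell by 0.37 (edgeR adjusted p = 0.118) and Tap1 by 0.30 (0.147). Psmb9 was higher in DKO, at 241 and 220 CPM (219.6 before rounding), than in PU.1 cKO, at 191 and 167 CPM (log2 fold change 0.38, edgeR adjusted p = 0.0594). Without 1 library in turn, the PU.1 cKO decreases of H2-M3, Tap1 and Tap2 did not pass when either PU.1 cKO replicate was left out, or control replicate 1 for H2-M3 (0.27), control replicate 2 for Tap2 (0.328) and either control for Tap1 (0.18 and 0.306). Psmb9 did not pass without DKO replicate 1 (0.286) or PU.1 cKO replicate 2 (0.38), and Tap2 in DKO did not pass with DESeq2 (0.195), with voom (0.432), or without control replicate 2 (0.444) or either DKO replicate (0.271 and 0.303). In DKO, Tapbp no longer passed with voom (0.27), without DKO replicate 1 (0.244) or without control replicate 2 (0.168).

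In naive and LPS + IL-4 cells libraries with the same replicate number deviated together, so fits with the replicate number as a block are given beside these counts. With the block, 7 of the 10 genes passed the adjusted p in naive PU.1 cKO in place of 3, all lower. The genes gained were H2-K1, Tapbp, Psmb8 and Psmb9. In DKO against PU.1 cKO 4 passed in place of 1, all higher, with H2-K1, H2-M3 and Tap1 gained. In SpiB KO 2 passed in place of 0, namely Tap2 lower and Psmb9 higher. In DKO against control 3 passed in place of 2, and in DKO against SpiB KO 3 in place of 0 (H2-M3, Tapbp and Psmb8, all lower). The block left 0 genes called in all 5 naive comparisons.

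Marker genes of other cell types differed between the naive genotypes. Markers of plasmacytoid dendritic cells, which also express B220, summed to 152 to 249 CPM in controls, 193 to 205 in PU.1 cKO, 832 to 1022 in the SpiB KO and 1062 to 1143 CPM in DKO naive libraries, and all 3 listed markers were detected in each group. A T cell list summed to 10.6 to 36.2 CPM in controls, 19.7 to 22.6 in PU.1 cKO, 252 to 313 in the SpiB KO and 355 to 366 CPM in DKO, with 0 of its 5 genes absent from any group, although the sort took CD3- cells. Of 4 T cell genes tested, 2 were called higher in SpiB KO and 2 in DKO. Their log2 fold changes ran from −0.16 to 4.82 in SpiB KO and from 0.43 to 5.12 in DKO. A macrophage list summed to 9.66 to 19.3 CPM in controls, 11.9 to 12.0 in PU.1 cKO, 47.7 to 60.4 in the SpiB KO and 66.7 to 67.3 CPM in DKO. Of 4 macrophage genes tested, 1 was called higher in SpiB KO and 2 in DKO. Over all genes 9.62% and 21.2% were called in either direction in these comparisons. The 6 B cell markers summed to 10914 to 11097 CPM in controls, 9532 to 9779 in the SpiB KO and 8191 to 8841 CPM in DKO. Whether these transcripts came from other cells or from the B cells themselves, and their part in the naive SpiB KO and DKO values, was not tested.

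**Figure D3:**
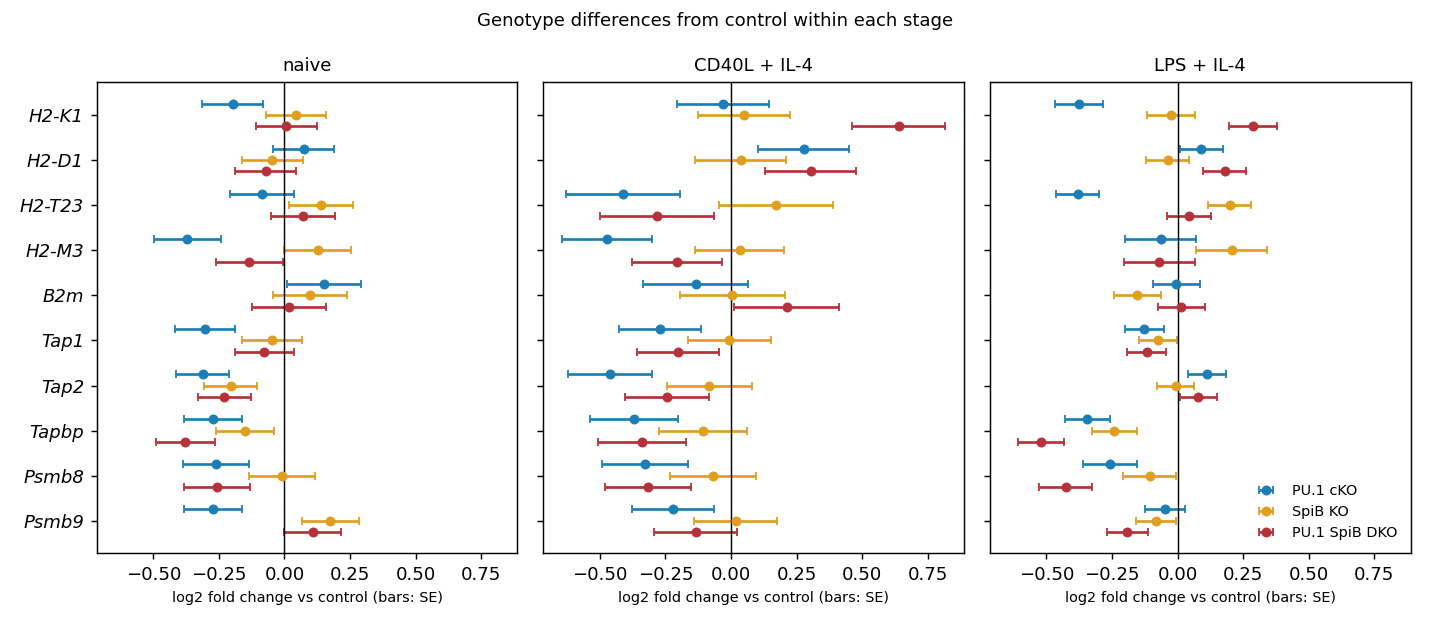
Log2 fold changes of the 10 genes against control in PU.1 cKO, SpiB KO and PU.1 SpiB DKO cells at each stage, with bars of 1 SE from the edgeR fit of the 8 libraries of that stage. H2-K1 in DKO moves from 0.01 in naive cells to 0.64 after CD40L + IL-4 and 0.29 after LPS + IL-4, while Tapbp is at −0.52 in DKO after LPS + IL-4.

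After CD40L + IL-4, H2-K1 was higher in DKO cells than in every other genotype. It stood at 1198 and 1535 CPM in controls, 1423 and 1293 in PU.1 cKO, 1557 and 1296 in the SpiB KO and 2247 and 2031 CPM in DKO. Both DKO libraries lay above the other 6, which overlapped. The increase was 1.56-fold against control (log2 fold change 0.64, SE 0.18, edgeR adjusted p = 0.0362), 1.59-fold against PU.1 cKO (0.67, SE 0.18, edgeR adjusted p = 0.0973) and 1.51-fold against SpiB KO (0.59, SE 0.18, edgeR adjusted p = 0.0581). H2-K1 was the only called gene of the 10 in each of these comparisons, where 18.3%, 4.06% and 15.3% of all 12721 genes tested were called.

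These calls stood close to the fold threshold and rested on 2 libraries a group. Against control, H2-K1 was not called without control replicate 1 (log2 fold change 0.48, adjusted p = 0.191), without DKO replicate 1 (0.56, 0.149) or with voom (0.52, 0.0414). Against PU.1 cKO it did not pass when any of the 4 libraries was left out in turn, with adjusted p values of 0.255 to 0.465, and with voom it was 0.58 (0.0796). Against SpiB KO it was lost without DKO replicate 1 (0.52, 0.195), DKO replicate 2 (0.66, 0.152) or SpiB KO replicate 2 (0.46, 0.22). The log2 fold change of H2-K1 stayed above 0 in all of these. The 6 B cell markers summed to 5502 to 7108 CPM in controls and 3657 to 4695 CPM in DKO at this stage, and their part in the H2-K1 values was not tested.

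The other heavy chains did not pass in DKO. H2-D1 was at 1133 and 1271 CPM in controls, 1464 and 1496 in PU.1 cKO, 1412 and 1081 in the SpiB KO and 1606 and 1381 CPM in DKO (DKO against control, log2 fold change 0.30, edgeR adjusted p = 0.277). H2-T23 was at 283 and 380 CPM in control and 306 and 242 CPM in DKO, and H2-M3 at 44.7 and 55.4 CPM in control and 44.5 and 42.7 CPM in DKO. B2m was at 1658 and 2359 CPM in control and 2643 and 2036 CPM in DKO. Groups overlapped for H2-T23 and B2m.

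With either factor lost alone, none of the 10 genes was called at this stage. In PU.1 cKO 0 of the 10 genes were called against 13.5% of all genes, with 2 at an unadjusted p under 0.05 and 0 called by DESeq2 or voom. Tap2 fell in PU.1 cKO, from 186 and 205 CPM to 144.4 and 144.0 CPM (log2 fold change −0.46, SE 0.16, edgeR adjusted p = 0.114). H2-M3 fell from 44.7 and 55.4 CPM to 36.7 and 36.6 CPM (−0.47, SE 0.17, edgeR adjusted p = 0.125). Tap2 no longer passed when any of the 4 libraries was left out (0.187 to 0.453), nor did H2-M3 without control replicate 2 (0.416) or either PU.1 cKO replicate (0.314 and 0.464). In SpiB KO 0 were called against 0.134% of all genes, 0 had an unadjusted p under 0.05, DESeq2 and voom called 0, and each adjusted p was 1.

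After LPS + IL-4, the libraries labelled PU.1 SpiB DKO, in which Spi1 did not pass as lower, had more H2-K1 and less Tapbp, Psmb8 and Psmb9 than control, all under 1.5-fold. H2-K1 stood at 919 and 927 CPM in controls, 658 and 744 in PU.1 cKO, 918 and 890 (889.5) in the SpiB KO and 1092 and 1049 CPM in DKO, so PU.1 cKO was lowest, DKO highest, and neither overlapped the rest. It rose 1.22-fold in DKO (log2 fold change 0.29, SE 0.09, edgeR adjusted p = 0.0379) and fell 1.30-fold in PU.1 cKO (−0.38, SE 0.09, edgeR adjusted p = 0.0267). DKO exceeded PU.1 cKO 1.58-fold (0.66, SE 0.09, edgeR adjusted p = 0.00248), the only called difference of the 10 genes at this stage, where 12.6% of all 12445 genes tested were called in that comparison. Without PU.1 cKO replicate 1 this difference was 0.56 (0.0308) and under the fold threshold, and the decrease in PU.1 cKO against control was −0.29 (0.233). The rise in DKO against control was 0.25 (0.202) without DKO replicate 1.

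Tapbp and Psmb8 fell in DKO. Tapbp was at 451 and 468 CPM in controls, 368 and 346 in PU.1 cKO, 364 and 412 in the SpiB KO and 289.9 and 319 CPM in DKO, with both DKO libraries below all others and both control libraries above. On the log2 scale its decrease in DKO was −0.52 (1.44-fold, SE 0.09, edgeR adjusted p = 0.00183), and the PU.1 cKO gave −0.34 (SE 0.09, edgeR adjusted p = 0.031). Psmb8 was at 531 and 602 CPM in controls, 453 and 482 in PU.1 cKO, 490 (489.8) and 560 (559.6) in the SpiB KO and 371 and 430.0 CPM in DKO, and fell by 0.43 in DKO (SE 0.10, edgeR adjusted p = 0.011). Tapbp was called in DKO without DKO replicate 2 (−0.60, 0.00685), and in PU.1 cKO it did not pass without PU.1 cKO replicate 2 (0.217). Plasma cell markers at this stage summed to 382 to 386 CPM in controls, 705 to 777 in PU.1 cKO and 1055 to 1084 CPM in DKO, and their part in these decreases was not tested. In DKO against control both genes passed without each of the 4 libraries in turn.

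Psmb9 fell by 0.19 in DKO, from 129 and 134 CPM to 107 and 112 CPM (edgeR adjusted p = 0.0848). H2-D1 was 773 and 804 CPM in control and 853 and 845 CPM in DKO, a rise of 0.18 on the log2 scale (edgeR adjusted p = 0.122). H2-D1 did not pass when any of the 4 libraries was left out. Psmb9 no longer passed without DKO replicate 1 (0.285) or control replicate 2 (0.204). Of the 10 genes 0 were called in DKO against control by edgeR, DESeq2 or voom, against 20.2% of all genes, with 4 at an unadjusted p under 0.05.

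H2-T23 separated the PU.1 cKO from the other genotypes after LPS + IL-4. Its levels were 196 and 180 CPM (179.8) in controls, 142.2 and 142.8 in PU.1 cKO, 207 and 224 in the SpiB KO and 181.5 and 187 CPM in DKO. It fell by 0.38 in PU.1 cKO against control (SE 0.08, edgeR adjusted p = 0.0158) and was higher in DKO than in PU.1 cKO by 0.42 (SE 0.08, edgeR adjusted p = 0.00925). In a fit of all 24 libraries neither passed (0.215 and 0.181). None of the 10 was called in PU.1 cKO, against 10.5% of all genes, with 4 at an unadjusted p under 0.05, nor in SpiB KO, against 3.19%, with 2, and DESeq2 and voom called 0 in both.

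DKO and SpiB KO both lack SpiB and carry floxed Spi1, and differ in the Cre transgene that deletes it. After LPS + IL-4 H2-K1 rose by 0.31 (edgeR adjusted p = 0.0432) and H2-D1 by 0.22 (0.101), and Tapbp fell by 0.28 (0.0532) and Psmb8 by 0.32 (0.0591) on the log2 scale. Of the 10 genes 0 were called by edgeR, DESeq2 or voom, against 12.8% of all genes, with 4 at an unadjusted p under 0.05. Tapbp (0.272 and 0.297) and Psmb8 (0.318 and 0.298) did not pass without DKO replicate 1 or SpiB KO replicate 2, and H2-D1 did not pass when any of the 4 libraries was left out. H2-K1 did not pass without DKO replicate 1 (0.249) or either SpiB KO replicate (0.167 and 0.178). With the replicate block 7 passed in place of 4 in this comparison, 5 in place of 2 in DKO against PU.1 cKO and 2 in place of 0 in SpiB KO against control (H2-T23 higher, Tapbp lower).

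The genotype effects were then set against each other between stages in the fit of all libraries. The DKO effect on H2-K1 was 0.65 log2 units larger after CD40L + IL-4 than in naive cells (SE 0.19, edgeR adjusted p = 0.0348), the only call among the 10, where 14.4% of all genes were called. Without control CD40L + IL-4 replicate 1 it was 0.46 (0.161), and it was under the fold threshold without DKO CD40L + IL-4 replicate 1 (0.576, 0.108), without DKO naive replicate 2 (0.582, 0.117) and with voom (0.42, 0.145). For LPS + IL-4 against naive DKO effects 0 of the 10 were called against 23.7% of all genes, and for LPS + IL-4 against CD40L + IL-4 0 against 22.5%, each with 1 gene at an unadjusted p under 0.05 and 0 called by DESeq2 or voom. For the PU.1 cKO effects 0 were called in all 3 pairs of stages, against 8.16% (CD40L + IL-4 minus naive), 5.88% (LPS + IL-4 minus naive) and 2.97% (LPS + IL-4 minus CD40L + IL-4), with 0, 1 and 1 at an unadjusted p under 0.05. DESeq2 called 0 in these, and voom called 1, Tap2 for LPS + IL-4 minus CD40L + IL-4.

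The ratio of H2-K1 to H2-D1 counts within a library needs no scaling between libraries. It was 1.46 and 1.56 in naive controls, 1.22 and 1.28 in PU.1 cKO, 1.61 and 1.60 in the SpiB KO and 1.61 and 1.57 in DKO. After CD40L + IL-4 it was 1.06 and 1.21 in controls, 0.972 and 0.864 in PU.1 cKO, 1.10 and 1.20 in the SpiB KO and 1.40 and 1.47 in DKO. After LPS + IL-4 it was 1.19 and 1.15 in controls, 0.827 and 0.865 in PU.1 cKO, 1.22 and 1.15 in the SpiB KO and 1.28 and 1.24 in DKO. The PU.1 cKO libraries had the lowest ratio at every stage and did not overlap the other genotypes, and after CD40L + IL-4 and LPS + IL-4 the DKO libraries had the highest. The ratio was chosen after its values were seen and was not tested.

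The ratio of the immunoproteasome gene Psmb8 to its constitutive counterpart Psmb5 was lower in activated than in naive control libraries. In controls it was 11.0 and 11.9 in naive cells, 7.20 and 7.67 after CD40L + IL-4 and 6.58 and 5.88 after LPS + IL-4. In DKO it was 7.63 and 8.31, 4.07 and 3.97, and 5.12 and 4.85 at the same stages, below both control libraries each time. PU.1 cKO libraries were also below both controls at each stage, at 8.52 and 7.88, 5.14 and 4.72, and 5.14 and 5.06. SpiB KO libraries were below both controls in naive cells, at 9.65 and 10.4. They overlapped controls after CD40L + IL-4, at 8.04 and 6.46, and after LPS + IL-4, at 5.86 and 6.24. The ratio of Psmb9 to its constitutive counterpart Psmb6 did not follow this at every stage. In controls it was 1.46 and 1.51 in naive cells, 1.51 and 1.66 after CD40L + IL-4 and 0.757 and 0.654 after LPS + IL-4. In DKO it was 1.42 and 1.52, 1.04 and 0.822, and 0.771 and 0.676 at the same stages. DKO libraries lay below both controls after CD40L + IL-4 and overlapped them at the other stages. These ratios were not tested either.

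**Figure D4:**
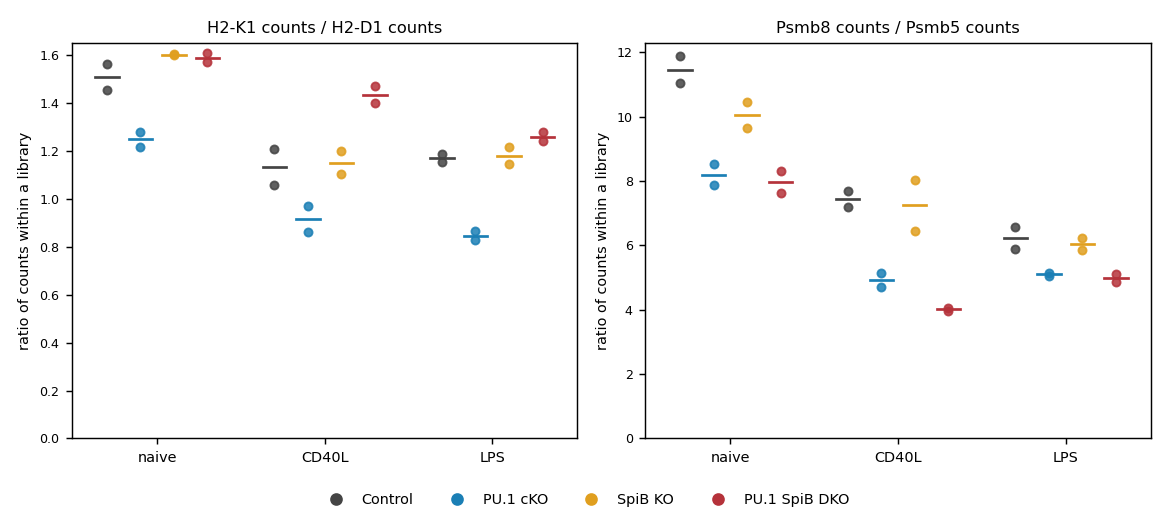
Ratios of counts within each library, H2-K1 to H2-D1 and Psmb8 to Psmb5, by stage and genotype, 1 point a library. The H2-K1 to H2-D1 ratio is lowest in PU.1 cKO at every stage and reaches 1.40 and 1.47 in DKO after CD40L + IL-4.

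Class I genes outside the list set the PU.1 cKO libraries apart. H2-K2 was at 6.7 and 7.73 CPM in naive control cells, 211 and 219 in PU.1 cKO, 5.65 and 3.68 in the SpiB KO and 3.88 and 4.16 CPM in DKO. H2-Q2 was at 0.685 and 0.892 CPM in naive control and 145 and 149 CPM in PU.1 cKO, and in DKO at 1.17 and 0.675 CPM. H2-Q10 was at 1.14 and 1.12 CPM in naive controls, 141 and 156 in PU.1 cKO and 3.37 and 2.7 CPM in DKO. Both PU.1 cKO libraries exceeded all 6 others for each of these genes. The DKO, which carries the same floxed Spi1 and Cre alleles, lay far below PU.1 cKO for each. Against control, the DKO libraries were lower for H2-K2, higher for H2-Q10 and overlapping for H2-Q2.

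H2-Q7 went the other way in naive PU.1 cKO cells, at 98.2 and 100.2 CPM against 174 and 155 CPM in control. In CD40L + IL-4 cells H2-Q7 was at 64.9 and 73.3 CPM in control and 128 and 108 CPM in DKO, the direction of H2-K1. Of 27 other class I genes listed, 17 were tested in naive cells and 18 at the activated stages. In PU.1 cKO 11, 12 and 11 were called higher in naive, CD40L + IL-4 and LPS + IL-4 cells, against 4.18%, 6.27% and 6.68% of all genes. In SpiB KO 1, 0 and 0 of them were called by edgeR, against 9.62%, 0.134% and 3.19% of all genes. At an unadjusted p under 0.05 there were 1, 0 and 3, and after LPS + IL-4 DESeq2 called 1 and voom 0. In DKO 3 (1 higher and 2 lower), 1 and 2 were called, against 21.2%, 18.3% and 20.2% of all genes.

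Across the H2 complex, from 1000000 bp before the first of the 9 genes to 1000000 bp after the last (chr17:32919478-38274485), 25% of other tested genes were called in naive PU.1 cKO, 26.2% after CD40L + IL-4 and 22.5% after LPS + IL-4. In SpiB KO these shares were 5.71%, 0% and 0.725%, beside 9.62%, 0.134% and 3.19% over all genes. In DKO they were 21.4%, 16.6% and 12.3%. Over all genes the shares in DKO were 21.2%, 18.3% and 20.2%, so the DKO share in this region was near or below that of all genes, while the PU.1 cKO shares stood beside 10.7%, 13.5% and 10.5% over all genes. These related genes share sequence, and the study's methods kept uniquely mapped reads alone, so reads that match several of them may be missing from the counts. How reads from a different H2 haplotype would be counted was not tested. The part of this pattern in the PU.1 cKO values of these 9 genes, and in the H2-K1 to H2-D1 ratio, was not tested. DKO values are given beside many of them for this reason.

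**Figure D5:**
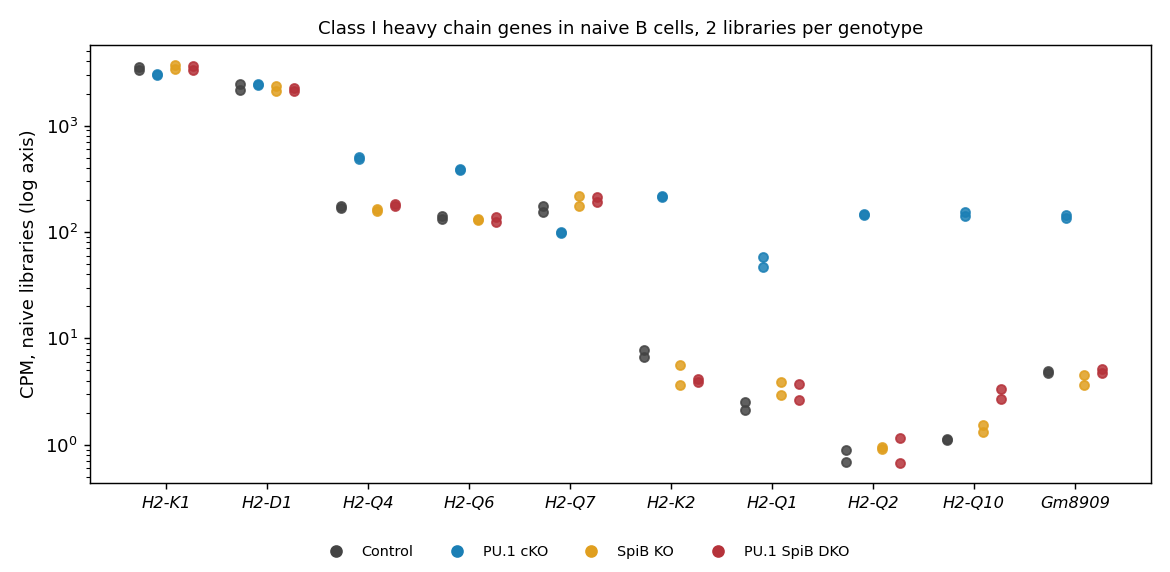
CPM on a log axis of H2-K1, H2-D1 and class I genes outside the list in the naive libraries, 1 point a library, by genotype. H2-K2, H2-Q2 and H2-Q10 lie far above the other genotypes in both PU.1 cKO libraries, while DKO lies closer to control than to PU.1 cKO.

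Other genes of the pathway were read from lists. Among 9 accessory genes, 2 endoplasmic reticulum helpers of class I folding were called higher in DKO after CD40L + IL-4, namely the chaperone gene Calr (log2 fold change 0.71, SE 0.18, edgeR adjusted p = 0.025) and the disulfide isomerase gene Pdia3 (0.69, SE 0.17, edgeR adjusted p = 0.0196). Against SpiB KO Calr, Pdia3 and the tapasin-related Tapbpl (0.84, edgeR adjusted p = 0.011) were called higher. Over all genes 18.3% were called in DKO against control and 15.3% against SpiB KO at this stage. Calr and Pdia3 also serve secretory cells, and 4 plasma cell markers summed to 1679 to 1849 CPM in these DKO libraries against 796 to 953 CPM in controls, with 0 at 0, although the cells were sorted as CD138-. The part of that difference in the Calr and Pdia3 values was not tested. After LPS + IL-4, 0 of the 9 were called in DKO against control, beside 20.2% of all genes. There 4 passed the adjusted p as lower and 1 as higher. In PU.1 cKO and SpiB KO 0 of the 9 were called by edgeR, DESeq2 or voom at any stage, with 0 to 5 at an unadjusted p under 0.05.

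Of 3 constitutive proteasome genes, Psmb6 was called higher in DKO after CD40L + IL-4 (log2 fold change 0.65, SE 0.18, edgeR adjusted p = 0.04). In that comparison 18.3% of all genes were called. No constitutive gene was called in naive or LPS + IL-4 cells of any genotype by edgeR, DESeq2 or voom, with 0 or 1 at an unadjusted p under 0.05.

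Among transcriptional regulators of class I genes, Rfx5, a subunit of the RFX complex that binds X boxes of class I and class II promoters, was called lower after CD40L + IL-4 in PU.1 cKO (−0.72, edgeR adjusted p = 0.025) and DKO (−0.98, edgeR adjusted p = 0.00428). Its partner Rfxank was called lower in DKO (−0.65, edgeR adjusted p = 0.0876). Irf2 was called lower in naive DKO (−0.62, edgeR adjusted p = 0.0172). Of 7 listed regulators, 1 was called in CD40L + IL-4 PU.1 cKO, 2 in CD40L + IL-4 DKO and 1 in naive DKO. Over all genes 13.5%, 18.3% and 21.2% were called in these comparisons with control.

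A list of 10 interferon-induced genes outside the pathway moved more than the class I genes after LPS + IL-4. All 10 were called lower in PU.1 cKO and in DKO and 8 in SpiB KO. Over all 12445 genes tested, 10.5%, 20.2% and 3.19% were called in PU.1 cKO, DKO and SpiB KO. Of these, 479, 811 and 117 genes were called lower. Their summed level was 323 to 347 CPM in controls, 102 to 106 in PU.1 cKO, 176 to 188 in the SpiB KO and 75.1 to 76.0 CPM in DKO. In DKO the antiviral genes Rsad2 and Mx1 fell by 4.21 and 4.16 and Rtp4 by 3.59 on the log2 scale, beside −0.52 for Tapbp, −0.43 for Psmb8 and +0.29 for H2-K1. The difference between the lists was not tested.

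In control cells, 5 of 9 accessory genes were called higher and 1 lower after LPS + IL-4 than in naive cells, beside 32.6% higher and 31.3% lower over all genes, with Pdia3 at 1.23 and the calnexin gene Canx at 1.06 on the log2 scale. The gene called lower was the immunoproteasome gene Psmb10, which fell by 0.99. Of the regulators 1 was called higher, Nlrc5, the class I transactivator (0.96, edgeR adjusted p = 0.00262), and 4 lower, with Irf2 at −2.00 and Irf1 at −1.45.

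Over the 24 libraries the 10 genes formed patterns that can be described by correlation of log2 CPM, given without a test since libraries share stage, table and genotype. H2-K1 correlated with B2m at r = 0.966 and with H2-D1 at 0.960. Tap1 correlated with Psmb9, its neighbour across the shared promoter, at 0.950 and with Tap2 at 0.916. Among 8716 genes the closest to H2-K1 outside the list were Cst3 (0.979), Rnf181 (0.977) and Cacfd1 (0.976). Those closest to B2m were Srgn (0.990), Rps24 (0.985) and Nme3 (0.984). The closest to Tap1 were the class II loading genes H2-DMa (0.933) and H2-DMb2 (0.931), followed by Man2b1 (0.930).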

How the data were processed

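RNA-seq counts per gene were deposited by the authors in 2 tables, 1 for naive and LPS + IL-4 cells and 1 for CD40L + IL-4 cells. Per the submitters' processing notes, reads were mapped with Subread and counted with featureCounts on GRCm38, with no versions named, and the libraries were made with a kit whose strand use in the counting is not given in the sources used here. The authors also deposited log2 RPKM values, quantile normalized, with naive and CD40L + IL-4 cells in 1 set and LPS + IL-4 cells in another; they serve here only to order genes by level. Counts were tested with the quasi-likelihood test of edgeR 4.0.16 (R 4.3.3) after TMM scaling, on genes at 0.5 CPM or more in at least 2 libraries, with the 8 libraries of a stage in 1 fit and all 24 in 1 fit for stage comparisons and differences of effects. Standard errors were taken as the log2 fold change over the square root of the F statistic. A gene passed at a Benjamini-Hochberg adjusted p under 0.15 over all genes tested and was called when its fold also exceeded 1.5. Alternatives were DESeq2 1.42.0, limma voom (limma 3.58.1), other filters and thresholds, other sets of libraries in the fit, a replicate block and leaving out each library. The steps were tested on simulated data. Rows without a symbol (517, with 0.162% of counts) were tested with the others. Of the sample columns, 0 lacked a sample.

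The members, gene lists and tests were chosen with earlier results of these data known. All 10 members are named with their values, genes of other lists where called or named for comparison, and by correlation the 3 genes closest to a member. The count ratios and 4 of the promoter elements were chosen after their values or sequences had been seen. The stage of each library was read from its title, since the protocol text attached to all samples describes the CD40L + IL-4 culture alone. No 2 replicates were identical. Deviations of same-numbered libraries from their group means correlated at r = 0.257 to 0.520 in naive and 0.529 to 0.764 in LPS + IL-4 cells (6 of 6 pairs above 0.1 in each), and at 0.011 to 0.560 after CD40L + IL-4 (4 of 6), so the numbers were taken to pair libraries in naive and LPS + IL-4 cells. H2-T23, B2m and Tapbp overlap other annotated genes, none above 4.50 CPM. The result for 1 gene of the regulator list is not reported here.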

Additional observations from a re-analysis of the deposited data

Results flagged for a closer look

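A test of the difference of a genotype effect between stages passed the adjusted p on 4 occasions, and the first below was also called. The effect of DKO on H2-K1 was 0.65 log2 units higher after CD40L + IL-4 than in naive cells (SE 0.19, edgeR adjusted p = 0.0348), and lower after LPS + IL-4 than after CD40L + IL-4 (difference −0.43, SE 0.19, edgeR adjusted p = 0.128). The effect of DKO on Psmb9 was lower after LPS + IL-4 than in naive cells (difference −0.36, SE 0.17, edgeR adjusted p = 0.143). The effect of PU.1 cKO on Tap2 was higher after LPS + IL-4 than after CD40L + IL-4 by 0.53 (SE 0.15, edgeR adjusted p = 0.122). The last 3 did not reach a fold of 1.5, and differences with CD40L + IL-4 cross count tables.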

How the results depend on the processing

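No log2 fold change of the 10 genes that was called changed sign under any alternative run. With no fold threshold the number of genes of the 10 called became 3 in naive PU.1 cKO, 2 in naive DKO, 1 in naive DKO against PU.1 cKO, 2 in CD40L + IL-4 PU.1 cKO, 3 in LPS + IL-4 PU.1 cKO, 5 in LPS + IL-4 DKO, 2 in LPS + IL-4 DKO against PU.1 cKO and 4 against SpiB KO, and 1 each for the DKO effects of LPS + IL-4 minus naive and minus CD40L + IL-4 and the PU.1 cKO effect of LPS + IL-4 minus CD40L + IL-4. With voom it became 0 for the 3 CD40L + IL-4 DKO comparisons and for the DKO effect of CD40L + IL-4 minus naive, 3 for CD40L + IL-4 against naive control cells, and 1 for the PU.1 cKO effect on Tap2. At an adjusted p under 0.05 it became 0 for CD40L + IL-4 DKO against PU.1 cKO and SpiB KO, and with all libraries in 1 fit 0 for the latter and 1 for LPS + IL-4 DKO (Tapbp). Leaving out libraries in turn gave 0 to 1 for CD40L + IL-4 PU.1 cKO (H2-M3 without control replicate 1), CD40L + IL-4 DKO against control and against SpiB KO, LPS + IL-4 DKO (Tapbp without DKO replicate 2), LPS + IL-4 DKO against PU.1 cKO, the DKO effect of CD40L + IL-4 minus naive and of LPS + IL-4 minus CD40L + IL-4, and the PU.1 cKO effect of LPS + IL-4 minus CD40L + IL-4. It gave 0 for CD40L + IL-4 DKO against PU.1 cKO and 1 to 8 for LPS + IL-4 against CD40L + IL-4 in control. The cause of these shifts was not tested.

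The replicate block changed no call of the 10 genes; CD40L + IL-4 numbers were not taken to pair libraries, and there the block raised those passing in DKO from 1 to 3 and in PU.1 cKO from 2 to 3. With voom the share of higher calls over all genes went from 59.3% to 47% in naive DKO, 76.8% to 58.4% in naive DKO against PU.1 cKO, 58.8% to 41.7% in CD40L + IL-4 SpiB KO, 67.7% to 53.7% in LPS + IL-4 DKO, 72.3% to 59.5% in LPS + IL-4 DKO against PU.1 cKO, 67.7% to 56.8% against SpiB KO, and 60.5% to 50.4% for the PU.1 cKO effect of LPS + IL-4 minus naive. A fit without the PU.1 cKO libraries was added after the data had been seen.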
